A study of Mus musculus with 20 samples.

Results

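A set of 10 genes of inflammatory signalling, from the interleukin-1 (IL-1) and interleukin-6 (IL-6) families and tumour necrosis factor (TNF), was followed through 20 RNA libraries of mouse intervertebral disc. They were chosen by symbol from a table of 51789 genes: the IL-1 ligands Il1a and Il1b, their antagonist Il1rn and receptor Il1r1, the IL-6 family ligands Il6, Lif and Osm, the receptor subunits Il6ra and Il6st, and Tnf. All 10 were in the table and all 10 passed the filter for testing, which asked for 1 FPKM or more (fragments per kilobase, corrected for library size) in at least 5 of the 20 libraries. Il1a, Il6, Osm and Tnf passed it through annulus libraries alone, and Lif through nucleus libraries alone. Il1rn reached 1 FPKM in 2 nucleus and 10 annulus libraries, so it too needed annulus libraries to pass. A count of members that differed between tissues is therefore partly set by that filter.

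The libraries came from 2 tissues of BL6 mice aged 24 months: the soft centre of the disc, or nucleus pulposus (NP), and its layered collagenous wall, or annulus fibrosus (AF). From 18 months of age, mice had been injected into the peritoneum for 6 months with DMSO as vehicle or with MDL-800 in the same volume of DMSO, so the controls carry the solvent too. MDL-800 is a small-molecule activator of SIRT6, an NAD-dependent deacylase of chromatin. Each of the 4 groups (NP vehicle, NP MDL-800, AF vehicle, AF MDL-800) had 5 libraries, and libraries are named by the number in their sample title. Tissue was dissected under a microscope, and the labels also call it primary cells. No genetic change is named. The dose, and whether a library is 1 mouse or a pool, are not given in the sources used here, so the p-values measure only the spread between these libraries.

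IL-1 alpha and IL-1 beta signal through the receptor encoded by Il1r1 to NF-kB, and the IL-1 receptor antagonist occupies that receptor without signalling. IL-6, leukaemia inhibitory factor and oncostatin M all use gp130, the product of Il6st, to reach JAK kinases and STAT factors. In degenerating discs IL-1 beta and TNF are known as inducers of matrix proteases, and IL-6 is a standard member of the secretome of senescent cells.

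Promoter windows from RefSeq (build GRCm38.p6, 250 bases before and 50 after a start) were found for 9 of the 10 genes, as 12 windows. Osm was not among them. The 250 bases upstream are printed for a pair of ligands with large tissue differences (Il1b and Tnf), for Il6, whose AF levels were uneven, and for the shared receptor gene Il6st, which was abundant in every library. Each is given 5′ to 3′ on the gene's own strand, and capitals mark matches to the motifs searched.
Il1b, chr2:129371140-129371389, minus strand: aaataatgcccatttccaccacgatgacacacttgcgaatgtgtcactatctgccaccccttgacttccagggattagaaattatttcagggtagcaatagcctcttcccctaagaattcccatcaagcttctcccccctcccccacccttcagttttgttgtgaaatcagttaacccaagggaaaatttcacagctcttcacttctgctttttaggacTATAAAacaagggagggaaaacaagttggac
Tnf, chr17:35202008-35202257, minus strand: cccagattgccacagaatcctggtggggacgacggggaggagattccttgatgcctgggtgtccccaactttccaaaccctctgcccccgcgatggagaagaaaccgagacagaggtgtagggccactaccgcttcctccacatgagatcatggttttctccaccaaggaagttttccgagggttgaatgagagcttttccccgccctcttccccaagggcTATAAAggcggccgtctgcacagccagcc
Il6, chr5:30012864-30013113, plus strand: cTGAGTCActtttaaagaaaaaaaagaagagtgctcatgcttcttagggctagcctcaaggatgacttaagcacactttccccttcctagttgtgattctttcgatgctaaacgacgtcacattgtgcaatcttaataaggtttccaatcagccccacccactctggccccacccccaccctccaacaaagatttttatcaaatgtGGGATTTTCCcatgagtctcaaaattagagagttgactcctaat
Il6st, chr13:112463820-112464069, plus strand: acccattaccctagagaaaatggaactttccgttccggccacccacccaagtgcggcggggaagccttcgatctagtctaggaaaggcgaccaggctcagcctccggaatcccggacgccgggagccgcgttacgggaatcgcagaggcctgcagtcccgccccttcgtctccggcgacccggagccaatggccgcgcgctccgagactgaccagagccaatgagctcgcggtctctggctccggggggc
The capitals in Il1b and Tnf are the TATA box, searched as TATAAA on the gene's strand, which starts 31 bases before the Il1b start and 29 before that of Tnf. It was also found in the Il1a window, 32 bases before the start, and in 8.32% of all 32851 windows of this length. The first capitals in Il6 are the AP-1 motif TGANTCA (both strands, 7.81% of windows) and the second the NF-kB consensus (both strands, 8.46% of windows), 44 bases before the start. AP-1 matches were also present in Il1a, Il1rn and Lif windows, and NF-kB matches in Il1r1 and Lif windows. The STAT motif TTCNNNGAA (both strands, 8.30% of windows) was in none of the 12. The Il6st window had no match and a GC content of 68.3%, against 45.7% for Il1b, 58.0% for Tnf, 44.0% for Il6 and a median of 52.7% over all windows. A match describes letters and is not a measured binding site.

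The labels were first set against markers. All 9 tested NP markers (Krt19, Car3 and others) were higher in NP than in AF under vehicle, and of 9 AF markers 7 were lower in NP, 1 was higher and 1 was not called. Under MDL-800 8 of the 9 NP markers were higher in NP and 1 was not called. Of the 9 AF markers 6 were then lower, 1 was higher and 2 were not called. AF vehicle library 9 had a summed NP-marker level of 15100 scaled FPKM, where the other AF libraries ranged from 2540 to 7580 and the NP libraries from 25700 to 33000. Markers of other cells were lower in NP in both treatments: all 10 neutrophil markers (S100a8, Ngp and others), all 10 macrophage markers (Adgre1, C1qa and others), and every tested marker of B, T and mast cells, endothelium, bone, osteoclasts, skeletal muscle, red cells and fat. The nerve and Schwann list was mixed, with 4 of 5 markers lower in NP in both treatments and S100b higher in NP under vehicle (means of 149 against 93.2 scaled FPKM) and not called under MDL-800. In bulk tissue, fewer cells of a type and less RNA per cell cannot be told apart. Estimated depth was 12.6 to 22.3 megafragments per library. Sirt6 itself had a log2 fold change under MDL-800 of 0.68 in NP (SE 0.15; limma adjusted p = 0.082) and 0.16 in AF (SE 0.24; limma adjusted p = 1).

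Under vehicle, 8 of the 10 genes differed between the tissues at a limma adjusted p under 0.05. In NP 7 were lower: Il1a, Il1b, Il1rn, Il1r1, Osm, Tnf and Il6st. Lif was higher in NP, and Il6 and Il6ra were not called. Of all 16383 genes tested, 55.7% were called (33.9% lower in NP and 21.8% higher), so the tissues differed widely and the members' share is read against that. The groups of 5 did not overlap for 7 members, against 41.0% of all genes. The members' median log2 fold change was -1.09, with -0.08 over all genes. With quantile normalization the all-gene median became 0.19 and the balance turned from 3577 higher and 5550 lower to 6310 higher and 4194 lower. The members stood at 1 higher and 7 lower under both scalings. The filter partly sets that member count, since Il1a, Il1rn, Osm and Tnf needed AF libraries to pass it and Lif needed NP libraries.

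In the MDL-800 libraries, none of which enters the vehicle comparison, 9 members were called, 8 lower in NP and 1 higher, where 62.8% of all genes were called (37.2% lower and 25.6% higher). There 7 members did not overlap, against 49.1% of all genes. The 8 members called under vehicle were all called again in the same direction. That is 100% of the vehicle calls and 88.9% of the MDL-800 calls. The share of calls repeated over all genes was not counted, so the repeat is not read as particular to the members. Il6 was the addition under MDL-800. The plot of each library's level shows this split of the genes.

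**Figure D1:**
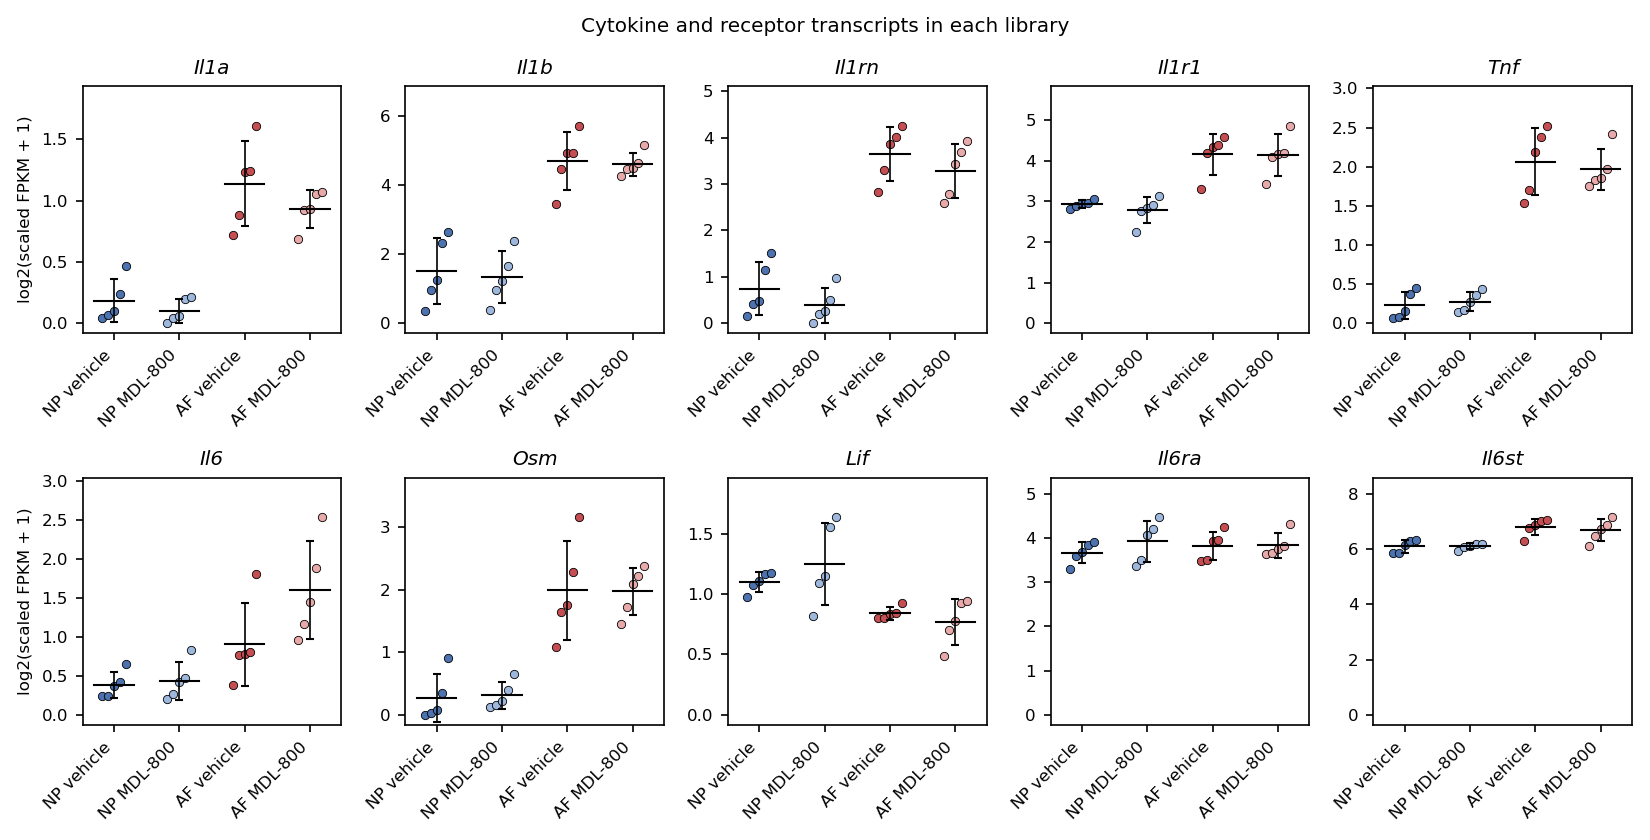
Levels of the 10 genes in each library, as log2(scaled FPKM + 1) on an axis that differs between panels; points are libraries, sorted by value, horizontal lines are means and bars are SD (n = 5). Il1a, Il1b, Il1rn, Il1r1, Osm and Tnf separate the AF libraries from the NP libraries, while Il6ra does not.

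Il1b (ENSMUSG00000027398, chr2:129364570-129371139) encodes the secreted IL-1 beta, made as a precursor and cut by caspase-1. Among NP vehicle libraries 1, 2, 3, 5 and 6 it stood at 4.04, 0.289, 0.951, 1.41 and 5.32 scaled FPKM, and among NP MDL-800 libraries 15, 18, 19, 20 and 22 at 1.35, 4.27, 0.959, 0.317 and 2.18. AF vehicle libraries 8, 9, 10, 12 and 13 held 52.2, 21.1, 10.0, 29.4 and 29.5, and AF MDL-800 libraries 25, 27, 28, 29 and 30 held 21.8, 23.9, 21.2, 18.4 and 34.7. Every AF library was above every NP library, and NP libraries 6, 18 and 1 were the highest within NP. The AF mean was 11.8 times the NP mean under vehicle and 13.2 times under MDL-800. On the log2 scale the NP-to-AF difference was -3.18 (SE 0.49; limma adjusted p = 0.000301) under vehicle and -3.28 (SE 0.33; limma adjusted p = 1.2e-05) under MDL-800.

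Il1a (ENSMUSG00000027399, chr2:129299610-129309972), the gene of the mostly cell-bound IL-1 alpha, was much scarcer. NP vehicle libraries, in the same order of numbers, gave 0.182, 0.0722, 0.0506, 0.0296 and 0.385 scaled FPKM, and NP MDL-800 libraries 0.0299, 0.158, 0.0404, 0 and 0.144. AF vehicle libraries gave 0.847, 1.35, 0.649, 2.06 and 1.37, and AF MDL-800 libraries 1.10, 1.08, 0.899, 0.607 and 0.911. The tissues did not overlap in either treatment. The NP values rest on an estimated 0 to 13 fragments per library and the AF values on 21 to 72, so the size of the ratio in NP is poorly known. The log2 difference was -0.95 (SE 0.18; limma adjusted p = 0.000909) under vehicle and -0.83 (SE 0.11; limma adjusted p = 7.45e-05) under MDL-800.

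Il1rn (ENSMUSG00000026981, chr2:24336853-24351494), which encodes the receptor antagonist, had the tissue pattern of the ligands. NP vehicle libraries stood at 1.23, 0.113, 0.334, 0.394 and 1.87 scaled FPKM and NP MDL-800 libraries at 0.209, 0.410, 0.151, 0 and 0.978. AF vehicle libraries stood at 15.3, 8.84, 6.09, 18.2 and 13.5 and AF MDL-800 libraries at 9.87, 5.91, 12.0, 5.00 and 14.3. No NP library reached the lowest AF library, and NP libraries 6 and 1 were the highest of NP here as well. The AF mean was 15.7 times the NP mean under vehicle (log2 difference -2.91, SE 0.33; limma adjusted p = 4.29e-05) and 26.9 times under MDL-800 (-2.90, SE 0.28; limma adjusted p = 9.9e-06).

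Il1r1 (ENSMUSG00000026072, chr1:40225080-40317257), the signalling receptor, was the IL-1 gene with substantial levels in NP. NP vehicle libraries lay close together at 6.08, 6.77, 7.31, 6.81 and 6.35 scaled FPKM, and NP MDL-800 libraries at 6.46, 6.16, 7.69, 3.76 and 5.84. AF vehicle libraries stood at 17.1, 8.88, 22.9, 19.8 and 19.2 and AF MDL-800 libraries at 16.2, 28.1, 16.9, 17.2 and 9.69. AF libraries 9 and 30 were the low ones of AF, and both were still above all NP libraries. The AF mean was 2.64 times the NP mean under vehicle (log2 difference -1.22, SE 0.21; limma adjusted p = 0.00056) and 2.95 times under MDL-800 (-1.37, SE 0.24; limma adjusted p = 0.000586).

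Tnf (ENSMUSG00000024401, chr17:35199381-35202007) encodes a cytokine made as a membrane protein and shed by the protease ADAM17. NP vehicle libraries gave 0.300, 0.0516, 0.0607, 0.118 and 0.365 scaled FPKM and NP MDL-800 libraries 0.209, 0.358, 0.121, 0.106 and 0.288. AF vehicle libraries gave 3.55, 2.27, 1.89, 4.20 and 4.76 and AF MDL-800 libraries 2.56, 2.61, 2.93, 2.36 and 4.34. The lowest AF library was above the highest NP library in both treatments. An estimated 1 to 10 fragments stand behind each NP value and 57 to 144 behind each AF value. Tnf had the smallest p of the members in both tissue comparisons, with log2 differences of -1.84 (SE 0.20; limma adjusted p = 3.69e-05) and -1.69 (SE 0.14; limma adjusted p = 4.04e-06).

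The IL-6 family ligands did not share one pattern. Osm (ENSMUSG00000058755, chr11:4236420-4241026), the gene of oncostatin M, resembled Il1b: NP vehicle libraries had 0.279, 0, 0.0202, 0.0493 and 0.879 scaled FPKM and NP MDL-800 libraries 0.169, 0.568, 0.111, 0.0952 and 0.319. AF vehicle libraries had 7.92, 2.38, 2.13, 1.11 and 3.86 and AF MDL-800 libraries 3.27, 2.30, 3.63, 1.74 and 4.17. The tissues did not overlap, although the AF vehicle libraries themselves ran from 1.11 in library 12 to 7.92 in library 8. The log2 differences were -1.71 (SE 0.35; limma adjusted p = 0.00169) and -1.66 (SE 0.19; limma adjusted p = 2.68e-05).

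Il6 (ENSMUSG00000025746, chr5:30013114-30019981) was low and uneven, with an estimated 6 to 35 fragments behind each NP value. NP vehicle libraries had 0.568, 0.186, 0.293, 0.187 and 0.336 scaled FPKM and NP MDL-800 libraries 0.776, 0.147, 0.202, 0.392 and 0.340. AF vehicle libraries had 0.743, 0.299, 0.715, 2.50 and 0.706 and AF MDL-800 libraries 1.25, 2.71, 0.938, 1.73 and 4.82. Under vehicle AF library 9 lay inside the NP range, and the difference of -0.52 was not called (SE 0.23; 95% interval -1.04 to -0.01; limma adjusted p = 0.08). Without AF library 9 it was called at -0.65 (limma adjusted p = 0.0324), the largest difference of the 10 omissions, which ran to -0.30. Over all 20 alternatives and omissions it was called in 2, with limma adjusted p up to 0.269. Under MDL-800 the tissues did not overlap and the difference was -1.16 (SE 0.28; limma adjusted p = 0.00361).

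Lif (ENSMUSG00000034394, chr11:4257557-4272514), the neighbour of Osm on chromosome 11, was the member called higher in NP. NP vehicle libraries had 0.965, 1.25, 1.25, 1.15 and 1.11 scaled FPKM and NP MDL-800 libraries 1.21, 2.11, 1.94, 0.762 and 1.13. AF vehicle libraries had 0.785, 0.792, 0.906, 0.742 and 0.744 and AF MDL-800 libraries 0.719, 0.920, 0.632, 0.906 and 0.398. Under vehicle all NP libraries were above all AF libraries, and under MDL-800 NP library 20 lay within AF. The log2 differences were small, 0.26 (SE 0.10; limma adjusted p = 0.0462) and 0.48 (SE 0.17; limma adjusted p = 0.0306). The vehicle call was lost when any 1 of NP libraries 2, 3, 5 and 6 or AF libraries 8, 9, 12 and 13 was left out (0.24 to 0.29 over all 10 omissions), and the MDL-800 call without NP library 18 or 19 or AF library 28 or 30 (0.38 to 0.59 over all 10).

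The receptor genes of the IL-6 family were well expressed in both tissues. Il6st (ENSMUSG00000021756, chr13:112464070-112510086) was the most abundant member per unit length in all 4 groups: NP vehicle libraries held 77.2, 79.2, 56.9, 57.2 and 69.2 scaled FPKM and NP MDL-800 libraries 72.3, 67.1, 65.9, 71.4 and 59.7. AF vehicle libraries held 108, 77.3, 127, 130.0 and 115 and AF MDL-800 libraries 88.2, 141, 106, 117 and 68.0. AF libraries 9 and 30 fell within the NP range and the other AF libraries were above it. The log2 differences were -0.70 (SE 0.16; limma adjusted p = 0.00333) and -0.58 (SE 0.17; limma adjusted p = 0.0118).

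Il6ra (ENSMUSG00000027947, chr3:89864059-89913196), the subunit that binds IL-6 itself, was the member with the most even levels between tissues. NP vehicle libraries held 11.1, 8.92, 13.3, 11.9 and 14.0 scaled FPKM and NP MDL-800 libraries 17.4, 15.8, 10.4, 21.3 and 9.41. AF vehicle libraries held 14.2, 10.4, 14.4, 10.2 and 18.0 and AF MDL-800 libraries 12.4, 11.7, 18.8, 13.0 and 11.5. All 4 groups overlapped. The log2 difference was -0.15 under vehicle (95% interval -0.53 to 0.22; limma adjusted p = 0.466), and 0.11 with quantile normalization. Under MDL-800 it was 0.09 (95% interval -0.39 to 0.58; limma adjusted p = 0.733).

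The order of levels per unit length also differed between tissues. In NP vehicle libraries Il6st (67.9 ± 10.6 scaled FPKM; SD, n = 5) stood above Il6ra (11.9 ± 1.98), Il6ra above Il1r1 (6.66 ± 0.474) and Il1r1 above Il1b (2.40 ± 2.17), each without overlap with the next. Below that, Lif (1.15 ± 0.119), Il1rn, Il6, Osm, Tnf and Il1a each overlapped their neighbour in the order. In AF vehicle libraries Il6st (112 ± 21.0) was clear of the rest. Il1b (28.4 ± 15.5) was in second place there, and from it down through Il1r1 (17.6 ± 5.30), Il6ra, Il1rn, Osm, Tnf, Il1a and Il6 to Lif (0.794 ± 0.0667) each overlapped its neighbour. So in NP 3 receptor genes ranked above all ligands by mean, and in AF Il1b ranked among the receptors.

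No member was called between MDL-800 and vehicle in either tissue. In NP 0 of 10 were called by limma, and 0 had an unadjusted p under 0.05, where 0.250% of all genes (41 of 16383; 0.232% higher and 0.0183% lower) were called and 2311 had such a p. No member separated the groups, against 4.50% of all genes. Fold changes of the members ran from -0.35 for Il1rn to 0.26 for Il6ra on the log2 scale, and the smallest p was 0.222 (Il1rn; limma adjusted p = 0.609). The 95% intervals set what sizes of change these libraries leave room for. They were narrow for Il6st (-0.24 to 0.23), Tnf (-0.18 to 0.28), Il1a (-0.30 to 0.13) and Il6 (-0.24 to 0.34), where for the low genes the added 1 FPKM compresses the scale. They were wide for Il1b (-1.24 to 0.88) and Il1rn (-0.96 to 0.25).

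In AF 0 of 10 members were called by limma and 0 had an unadjusted p under 0.05, where 0% of all genes were called and 270 had such a p. No member separated the groups, against 0.226% of all genes. Il6 had the largest difference, with a mean of 2.29 ± 1.56 scaled FPKM under MDL-800 and 0.993 ± 0.863 under vehicle (SD, n = 5), a ratio of 2.31. Its log2 fold change was 0.69 (SE 0.33; 95% interval -0.04 to 1.43; unadjusted p = 0.0624; limma adjusted p = 1). AF MDL-800 libraries 30 and 27 were above all vehicle libraries, and vehicle library 12 was above libraries 25, 28 and 29. For Il1b the interval in AF was -0.88 to 0.70, for Tnf -0.57 to 0.37 and for Il1rn -1.10 to 0.37.

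The difference of the MDL-800 effect between NP and AF was tested in a fit of all 4 groups. It was called for 0 of 10 members (0 with an unadjusted p under 0.05) and for 0% of the 16383 genes, of which 611 had an unadjusted p under 0.05. The smallest member p was 0.103, for Il6, whose effect in NP minus that in AF was -0.64 (SE 0.37; limma adjusted p = 1). The plot of fold changes sets the tissue and treatment comparisons on one axis.

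**Figure D2:**
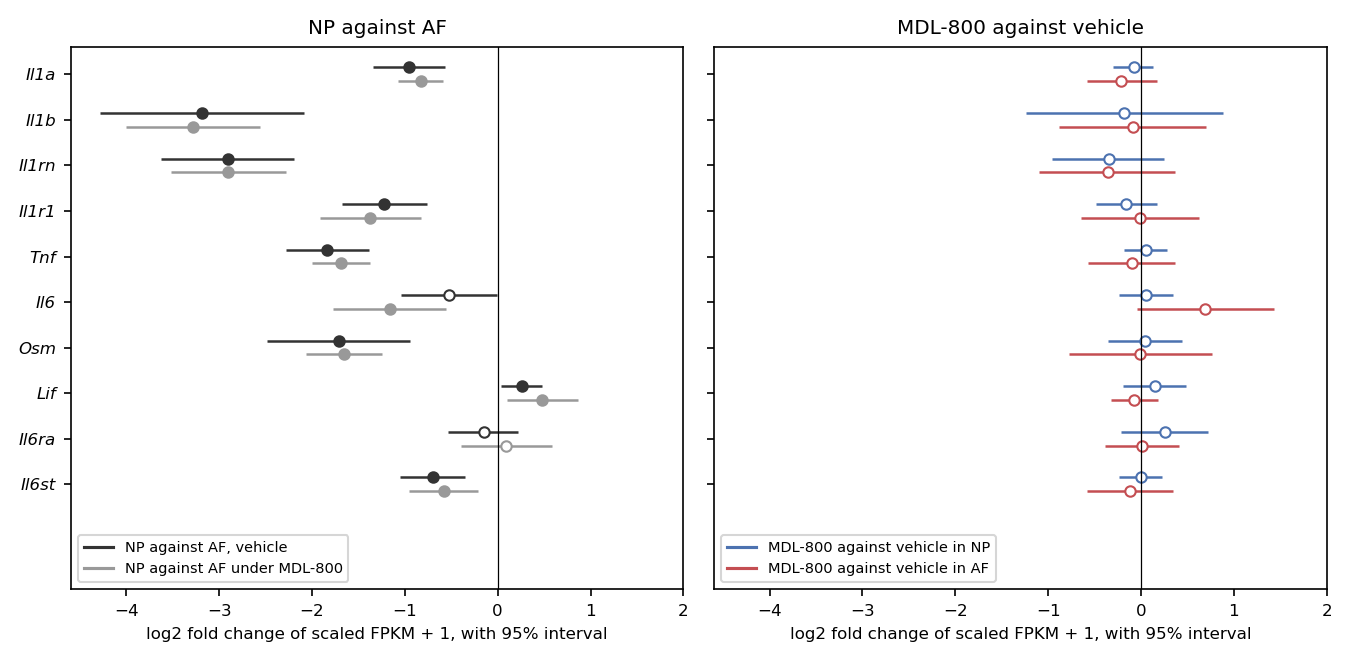
Log2 fold changes of scaled FPKM + 1 for the 10 genes with 95% intervals; the left panel sets NP against AF within each treatment and the right panel MDL-800 against vehicle within each tissue, with filled points for a limma adjusted p under 0.05. The tissue differences reach -3.28 for Il1b, and every treatment interval includes 0.

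Markers of myeloid cells differed between the tissues in the direction of Il1b and Tnf. Summed over the 10 neutrophil markers, NP vehicle libraries ranged from 202 to 3110 scaled FPKM and NP MDL-800 libraries from 192 to 1670, against 7270 to 19300 in AF vehicle and 6120 to 32900 in AF MDL-800 libraries. The 10 macrophage markers summed to 69.1 to 398, 69.9 to 236, 1440 to 2720 and 1130 to 2490 in the same order of groups. No marker of these lists was at 0 in all 5 libraries of a group. Within NP, library 6 (3110), library 22 (1670), library 18 (1640) and library 1 (1610) had the highest neutrophil sums, and the same 4 libraries had the highest Il1a, Il1b, Il1rn, Osm and Tnf of NP. Libraries 20 (192) and 2 (202) had the lowest neutrophil sums and the lowest Il1b. Libraries 6, 22, 18 and 1 also had the highest NP sums of macrophage, T and NK cell, endothelium and red cell markers. They were not the highest 4 by the other cell lists. Their rank was therefore not particular to neutrophil markers. Il6 and Lif did not follow the neutrophil order: Il6 was highest in library 15 (0.776 scaled FPKM; neutrophil marker sum 606) and lowest in library 18 (0.147). Within AF the match was less close. Library 12, with a neutrophil sum of 7510, had the highest Il1a (2.06 scaled FPKM) and Il1rn (18.2) of AF. Library 30, with the highest sum (32900), came after library 8 (19300) for Il1b and Osm.

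Per 1000 scaled FPKM of neutrophil markers, the Il1b ranges of the tissues overlapped: the medians were 2.43 scaled FPKM (range 1.43 to 3.08) in NP vehicle, 2.23 (1.31 to 2.60) in NP MDL-800, 1.87 (1.38 to 3.91) in AF vehicle and 1.57 (1.06 to 3.91) in AF MDL-800 libraries. For Tnf these medians were 0.196, 0.312, 0.253 and 0.184, and the 4 ranges overlapped too. The receptor genes had higher medians in NP on this scale, as did the ligands Lif, Il6, Il1a and Il1b, in both treatments. Lif per 1000 had a median of 1.99 (0.356 to 6.18) in NP vehicle and 0.07 (0.0396 to 0.125) in AF vehicle libraries. Neutrophil sums were far lower in NP, so a gene with even levels between tissues comes out higher there by the division alone. Il1r1 per 1000 had a median of 11.7 (2.04 to 33.5) in NP vehicle and 1.02 (0.786 to 3.15) in AF vehicle libraries, and its ranges overlapped between tissues too, also under MDL-800. Il6ra (20.5, 4.49 to 44.2, against 0.956, 0.738 to 1.99) and Il6st (98.5, 22.3 to 392, against 6.84, 5.62 to 17.4) did not overlap under vehicle. Per 1000 scaled FPKM of macrophage markers, the Il1b and Tnf ranges of the 4 groups overlapped as well. The Il1b medians there were 13.4 in NP vehicle, 10.9 in NP MDL-800, 14.6 in AF vehicle and 13.9 in AF MDL-800 libraries. The overlap was therefore not particular to neutrophil markers. Between treatments limma called 0 of the 10 neutrophil markers in NP and 0 of 10 in AF. The part of myeloid cells in the tissue differences was not tested.

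**Figure D3:**
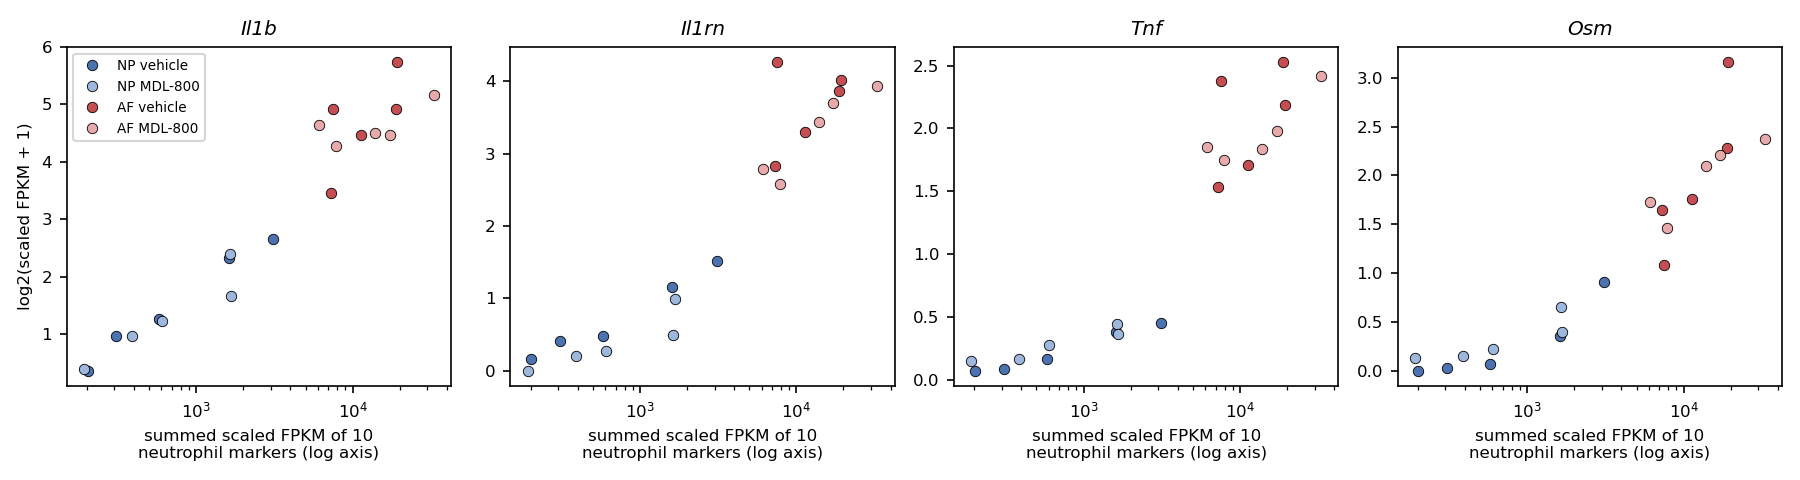
Log2(scaled FPKM + 1) of Il1b, Il1rn, Tnf and Osm against the summed scaled FPKM of 10 neutrophil markers (log axis); each point is a library, coloured by group. Within NP the libraries with the highest marker sums, such as library 6 at 3110, also have the highest Il1b. The same NP libraries also have the highest sums of macrophage, T and NK cell, endothelium and red cell markers, which are not plotted.

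The genes most alike were found by Pearson's r of log2(scaled FPKM + 1) over the 20 libraries after each group's mean was removed. These r values describe libraries that also share differences in cell makeup, so they carry no p. Nearest to Il1b were Ifitm1, Lilr4b and Ms4a6c (r = 0.94 each), to Il1rn Pira2 (0.94), Ms4a4c (0.92) and Clec4d (0.91), and to Osm C5ar2 (0.92), Siglecf and Trem1 (0.91 each). Most of these are receptors or membrane proteins of myeloid cells. Nearest to Il1r1 were Mkx (0.94), a transcription factor of tendon and annulus, Pam and Enpp2 (0.93 each). Il6 was nearest to the chemokine genes Ccl7 (0.82) and Ccl2 (0.81), and then to Nqo2 (0.73). For Il6st they were Fbxo11 (0.93), Pomk (0.91) and Bmpr2 (0.90), for Il6ra Fam134c, Zfp319 and Gramd4 (0.82 each), and for Il1a Gpr171 (0.87), Fam26f and Gimap7 (0.83 each). Tnf was nearest to Clec2i (0.90), the pseudogene Gm4759 (0.87) and the long noncoding RNA AC164623.1 (0.86), and genes near to Lif included Gm21967 (0.78) and Bdh1 (0.77). Among the members, Il1rn and Tnf (0.82), Il1b and Il1rn (0.79), Il1b and Tnf (0.72) and Il1r1 and Il6st (0.72) were the most alike pairs.

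The rest of the pathways was read from 7 lists of 92 genes, of which 88 were in the table and 83 were tested. Under vehicle 59 of the 83 were lower in NP, 3 were higher and 21 were not called, where 33.9% of all genes were lower and 21.8% higher (median log2 difference -0.96, with -0.08 over all genes). Under MDL-800 58 were lower and 4 higher, where 37.2% of all genes were lower and 25.6% higher (median -0.87). Of the 62 genes called in each comparison, in either direction, 59 were called in the same direction in both, 95.2% of the calls in each. Here too the share repeated over all genes was not counted. Of the 83 genes 13, Il33 among them, had 0 NP libraries at 1 FPKM and passed the filter through AF libraries alone. With these included, 20 genes had under 5 NP libraries at 1 FPKM and so needed AF libraries to pass. Casp1, Aim2, Ebi3, Il1r2, Il18rap and Steap4 were among the 20, all of which were called lower in NP under vehicle. No gene had under 5 AF libraries at 1 FPKM, so these counts too are partly set by the filter.

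Other IL-1 ligands and processing genes were lower in NP for 7 of 8 tested genes. The alarmin Il33 averaged 0.370 ± 0.241 scaled FPKM in NP and 13.4 ± 6.25 in AF under vehicle (SD, n = 5; log2 difference -3.28). Casp1, the protease that matures IL-1 beta, averaged 0.588 ± 0.492 and 9.86 ± 2.7 (-2.79). The DNA sensor Aim2 (-2.58) and the inflammasome adaptor Pycard (-2.22) were lower as well. Of 17 other IL-1 receptors and adaptors 12 were lower and 1, the kinase Irak2 (0.67, named for being the only higher call), was higher. The lower ones included the decoy receptor Il1r2 (-2.64), the IL-18 receptor subunit Il18rap (-2.53), the IL-33 receptor Il1rl1 (-1.97) and the inhibitory Irak3 (-1.67).

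Of 5 other IL-6 family ligands tested 2 were lower in NP, among them Ebi3 (-2.36), a subunit of 2-chain cytokines. Of 6 other receptors and shedding enzymes 4 were lower, among them Cntfr (-1.13) and Adam10 (-1.03), a protease that can release the IL-6 receptor. Among 12 genes of the JAK and STAT relay 9 were lower, among them the feedback inhibitor Socs1 (-1.12), Stat5b (-1.05) and Jak1 (-0.98). The TNF list was the most mixed. Of its 16 genes 8 were lower in NP, including the receptor Tnfrsf1b (-2.48) and the kinase Ripk1 (-1.34), and 2 were higher. The higher call named by the rule was the adaptor Traf5, at 17.8 ± 2.96 scaled FPKM in NP and 7.49 ± 1.83 in AF (SD, n = 5; 1.16, SE 0.16; limma adjusted p = 0.000167).

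Acute-phase and inflammatory target genes were lower in NP for 17 of 19 tested genes. Lcn2, a siderophore-binding protein also stored in neutrophil granules, averaged 71.2 ± 83.7 scaled FPKM in NP and 942 ± 481 in AF under vehicle (SD, n = 5; -4.30). Haptoglobin (Hp, -4.09), the metalloreductase Steap4 (-3.83) and the adhesion molecule Vcam1 (-3.26) followed. Under MDL-800 the counts per list were within 1 of these in every list.

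**Figure D4:**
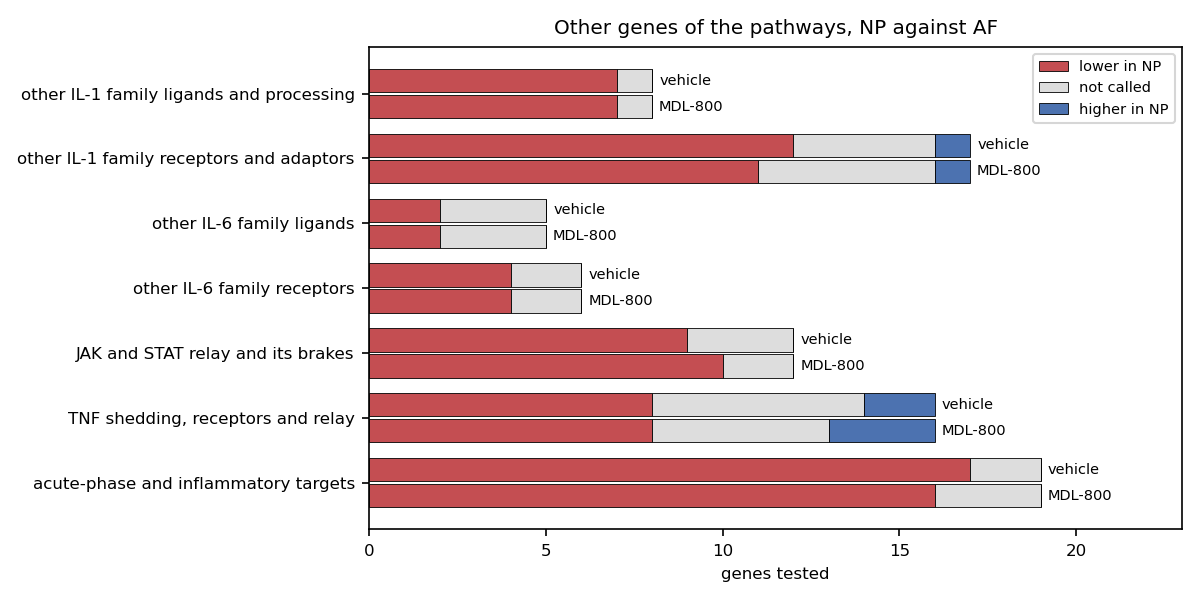
Number of other pathway genes called lower, not called or called higher in NP than in AF (limma adjusted p under 0.05), by list, with the vehicle comparison above the MDL-800 comparison in each pair of bars. Lower calls are most of the bar in 5 lists, while the TNF list holds most of the higher calls.

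Between MDL-800 and vehicle limma called 0 of the 83 pathway genes in NP and 0 in AF, with 8 and 1 at an unadjusted p under 0.05. The smallest adjusted p in NP was 0.0743, for Rhbdf1, a partner of ADAM17 in TNF shedding (log2 fold change 0.77, SE 0.16). The lowest p in the other lists in NP belonged to Stat5b (0.33), Zfp36 (0.73), Il18 (-0.36), Tab1 (0.26), Clcf1 (0.19) and Cntfr (0.35), with limma adjusted p from 0.267 to 0.765. The difference of the MDL-800 effect between tissues was called for 0 of 83 (1 at an unadjusted p under 0.05).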

How the data were processed

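RNA was extracted from dissected tissue, and stranded total RNA libraries were made after ribosomal RNA depletion, per the labels' protocols. Gene levels were deposited by the authors as FPKM values in 1 table, rounded to 2 decimals, with Ensembl identifiers and symbols. STAR 2.7.11b and the build mm10 are named in the submitters' processing notes. The program that assigned reads to genes, its handling of strand and of reads matching several genes, and the annotation are not given in the sources used here. Columns were matched to samples by name, with 0 left unused, and no 2 libraries were identical. Coordinates are from GENCODE M21 (GRCm38).

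Because FPKM is a normalized unit, count models were avoided. Values were divided by a median-ratio factor per library (0.933 to 1.06, from the 11308 genes that reached 1 FPKM in all 20 libraries), which gives the scaled FPKM of the text. Tests used log2(scaled FPKM + 1) in limma 3.58.1 (lmFit, eBayes with a trend; R 4.3.3), two-sided, on the 16383 genes that reached 1 FPKM in 5 or more libraries, with Benjamini-Hochberg adjustment over all of them and a threshold of 0.05. Fold changes share this scale, on which differences of scarce transcripts come out too small. Only the groups compared entered each fit, and all 4 entered the test of the difference between tissues. Intervals are 95% from limma's moderated degrees of freedom. The method was tested on simulated data.

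Depth was estimated from the steps of low values in 6641 single-exon genes (79.7% to 85.1% of those values lay within 0.15 of a whole fragment), and fragment numbers per gene follow from it as approximations that entered no test. RefSeq promoter windows were searched for motifs in Python 3.11.15. Every member was named. Of each pathway list the text names up to 4 called genes with the largest change, or without calls the gene with the smallest p, and the 3 genes most alike each member; a few genes that this rule names are not reported here. The members and lists were chosen with earlier results of these data known. Alternatives tried were other pseudocounts, filters, scalings, fits of all groups, array weights, omission of each library and a replicate block.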

Additional observations from a re-analysis of the deposited data

Results flagged for a closer look

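In 40 sets of 5 libraries (10 genes in 4 groups), 3 had a highest library set apart from the rest, its gap to the next being over 0.71 of the whole range. Chance gives this in about 1 in 20 groups. In AF vehicle, Il6 was at 2.50 scaled FPKM in library 12, with a gap of 0.8 of the range. In AF MDL-800, Il6ra was at 18.8 scaled FPKM in library 28 (0.79 of the range). In the same group, Tnf was at 4.34 scaled FPKM in library 30 (0.71 of the range), the library with the highest neutrophil marker sum of AF (32900). That library also had the highest AF sums of red cell markers (2690) and bone markers (1250). Tnf was higher still in AF vehicle library 13 (4.76), where the neutrophil sum was 18800.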

How the results depend on the processing

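Over all alternatives and omissions, Il1b, Il1rn, Il1r1, Osm and Tnf stayed lower in NP with a limma adjusted p under 0.05 in both tissue comparisons, as did Il1a wherever it was tested (its mean missed a filter on the mean of all libraries). Lif lost its call in 12 of 20 such fits under vehicle, 8 of them omissions, and in 6 of 20 under MDL-800, 4 of them omissions. The members called ranged from 7 to 9 in both tissue comparisons, and 0 members were called for MDL-800 or for its difference between tissues under any of them. Counts of all genes moved more. For MDL-800 in NP the 41 genes became 16 without a filter, 18 without scaling and 4 with all 4 groups in the fit, and between 2 (without NP library 3 or 22) and 189 (without NP library 6) when a library was left out, each of the 10 omissions moving it by over 1.5 times. In AF omissions gave between 0 and 1 genes (1 without MDL-800 library 25 or 29), and for the difference between tissues between 0 and 1 (1 without AF library 30). The cause was not tested.

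Signs turned only for log2 fold changes that were not called. For MDL-800 in AF, Osm was 0.03 and 0.01 with pseudocounts of 0.1 and 0.5, and Il6ra -0.04 with array weights. In the tissue comparisons Il6ra was 0.11 with quantile normalization (vehicle) and -0.08 with the replicate block (MDL-800). For the difference between tissues Il1a was -0.06 with a pseudocount of 0.1, and Il1rn -0.56 and -0.14 with pseudocounts of 0.1 and 0.5 and -0.01 with quantile normalization or upper-quartile scaling. Omissions of a library gave, for MDL-800 in NP, -0.47 to 0.10 for Il1b, -0.05 to 0.12 for Il6 and -0.05 to 0.20 for Osm. In AF they gave -0.40 to 0.17 for Il1b, -0.22 to 0.17 for Il1r1, -0.11 to 0.11 for Il6ra, -0.24 to 0.02 for Il6st, -0.24 to 0.28 for Osm and -0.23 to 0.02 for Tnf. For the difference between tissues they gave -0.38 to 0.22 for Il1b, -0.33 to 0.06 for Il1r1, -0.17 to 0.22 for Il1rn, -0.02 to 0.24 for Il6st and -0.24 to 0.28 for Osm. For Il6ra between tissues under MDL-800 they gave -0.04 to 0.23.

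Numbers in the column names are shared by 5 NP and AF pairs under vehicle and 3 under MDL-800, and what they mark is not given in the sources used here. Same-numbered libraries deviated together in 2 of 5 and 1 of 3 pairs (r over 0.1). In each treatment 1 pair matched best with its own number. Libraries also differ in cell makeup, so these correlations cannot tell whether a pair shares a mouse, and the main fits treat all libraries as unpaired. The replicate block, chosen after seeing the data, gave 7 members called in each tissue comparison, without Lif in either (limma adjusted p = 0.0984 and 0.116) and without Il6st under MDL-800 (0.0685). For the difference between tissues it turned Tnf to -0.02, Il1rn to -0.17 and Osm to -0.16. Depth limits Tnf, Il1a, Osm and Il6 in NP, where 0 to 35 estimated fragments stand behind a value. In their lowest NP libraries Il1b had an estimated 7 fragments and Il1rn 0.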
